A study of Rattus norvegicus with 20 samples.

Results

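The 7 genes described here, Agt, Ace, Agtr1a, Agtr1b, Atp6ap2, Enpep and Mme, encode the substrate, receptors and peptidases of the renin-angiotensin system, and were taken by gene symbol from a table of 16672 genes. All 7 had a row, and all 7 were among the 16153 genes tested, those that reached a normalized count of 10 in 5 or more libraries. RNA of microvessels dissected from the kidney was sequenced in 20 male Dahl salt-sensitive (SS) rats, an inbred strain that becomes hypertensive on a salt-rich diet. The 4 groups, each of 5 rats, were SS rats labelled Ccl2-/- ("null") on chow with 4.0% NaCl for 2 weeks ("high salt"), the same null genotype on 0.3% NaCl ("low salt"), SS rats labelled Ccl2+/+ on 4.0% NaCl, and SS rats labelled Ccl2+/+ on 0.3% NaCl. All 4 groups share the SS background. Ccl2 is a chemokine that draws monocytes, and the labels do not say which part of the gene the mutation alters. The labels give each library its own rat number within its group.

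In this system angiotensinogen, the product of Agt, is cleaved to angiotensin I, and the angiotensin converting enzyme, Ace, cuts that to angiotensin II. Angiotensin II constricts vessels and raises sodium reabsorption through AT1 receptors, of which rodents have a pair, Agtr1a and Agtr1b. Peptidases on the cell surface break the peptides down or turn them to fragments with other receptors, and in the kidney much of this takes place on the brush border of the proximal tubule as well as in vessels.

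Recovered read totals were 22.0 M to 47.9 M per library, and the 7 genes had between 49 and 10499 reads per library. All 15 endothelial and all 11 smooth muscle markers were above 0 in every library. Their summed normalized counts had group means of 67101 to 92954 and 54760 to 68173. Tubule markers had larger sums, with group means of 106740 to 234222 for 6 loop of Henle markers. The 16 proximal tubule markers summed to 431345 to 525428 normalized counts in rats labelled null on high salt, 349733 to 447415 in those on low salt, 361211 to 524494 in SS rats on high salt and 396661 to 502627 in SS rats on low salt. The lists hold different genes, so these sums do not give shares of cell types. In bulk RNA fewer cells of a type and less RNA per cell cannot be told apart. The share of reads on 13 mitochondrially encoded genes was 9.77 to 16.5%, 14.1 to 29.5%, 6.90 to 20.4% and 22.6 to 42.5% in those groups, so the SS groups did not overlap in it. Ccl2 itself had 77.5 to 128 normalized counts in rats labelled null on high salt, against 167 to 426 in SS rats on high salt, and 124 to 218 in their counterparts on low salt, against 138 to 212 in SS rats on low salt. On low salt the groups overlapped, so the Ccl2 level does not check the null label there. Ccl2 differed with salt by 0.53 on the log2 scale in SS rats and by -0.81 in rats labelled null (limma adjusted p = 0.0966 and 0.0338). Whether the gap on high salt comes from the mutation was not tested, so directions that use the null libraries rest on the label. The SS high salt library of rat 1 and the null low salt library of rat 4 stood apart on principal components, and for some results the values without them are given too.

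Of the 7 genes, Mme, which encodes neprilysin, was the only one that passed the threshold in any of the 5 comparisons: it fell on high salt in SS rats. The threshold was a Benjamini-Hochberg adjusted p of 0.05 over all genes tested, in limma fitted to log2(normalized count + 1). That is 1 of 7 genes in a comparison in which 17.3% of all genes tested passed, 9.52% higher and 7.73% lower on high salt. None of the 7 passed in rats labelled null, where 5.52% of all genes tested changed with salt (3.06% higher and 2.45% lower), although Agtr1a and Enpep were at an unadjusted p under 0.05. None passed between null and SS rats on high salt, where 8.52% of genes did (3.7% higher and 4.82% lower in the null group), with 2 members, Mme and Agtr1a, at an unadjusted p under 0.05. None passed on low salt, where 0.557% of genes did (0.452% higher and 0.105% lower) and no member was under an unadjusted 0.05. None passed for the interaction, the salt effect in rats labelled null minus that in SS rats, where 2.53% of genes did (0.774% higher and 1.76% lower) and 1 member, Mme, was under an unadjusted 0.05. Agtr1a in rats labelled null was the only member with groups that did not overlap in any of the 4 direct comparisons, where 9.32% of genes tested (salt in SS rats), 10.8% (salt in rats labelled null), 8.41% (genotype on high salt) and 3.69% (genotype on low salt) had groups without overlap. With edgeR the member counts were the same in all 5 comparisons, in which it called 17.3%, 5.92%, 8.92%, 0.39% and 2.72% of genes in the order salt in SS rats, salt in rats labelled null, genotype on high salt, genotype on low salt and interaction. DESeq2 called more genes throughout, 20.7%, 10.9%, 12.6%, 3.44% and 5.38% in that order, and with it the member counts were 1 for salt in SS rats, 2 for salt in rats labelled null, 1 on high salt, 0 on low salt and 1 for the interaction. Scaling to library totals moved the median of all genes by 0.38 for salt in SS rats, where 8929 genes then passed, by 0.12 in rats labelled null (1031 genes), by 0.26 for genotype on low salt (4059 genes) and by -0.27 for the interaction (1082 genes), so values under it are to be read against those shifts. The median log2 change of the 7 genes was -0.11 for salt in SS rats, 0.12 for salt in rats labelled null, 0.15 between genotypes on high salt, -0.11 on low salt and 0.25 for the interaction, against medians between -0.0043 and 0.00087 over all genes tested.

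**Figure D1:**
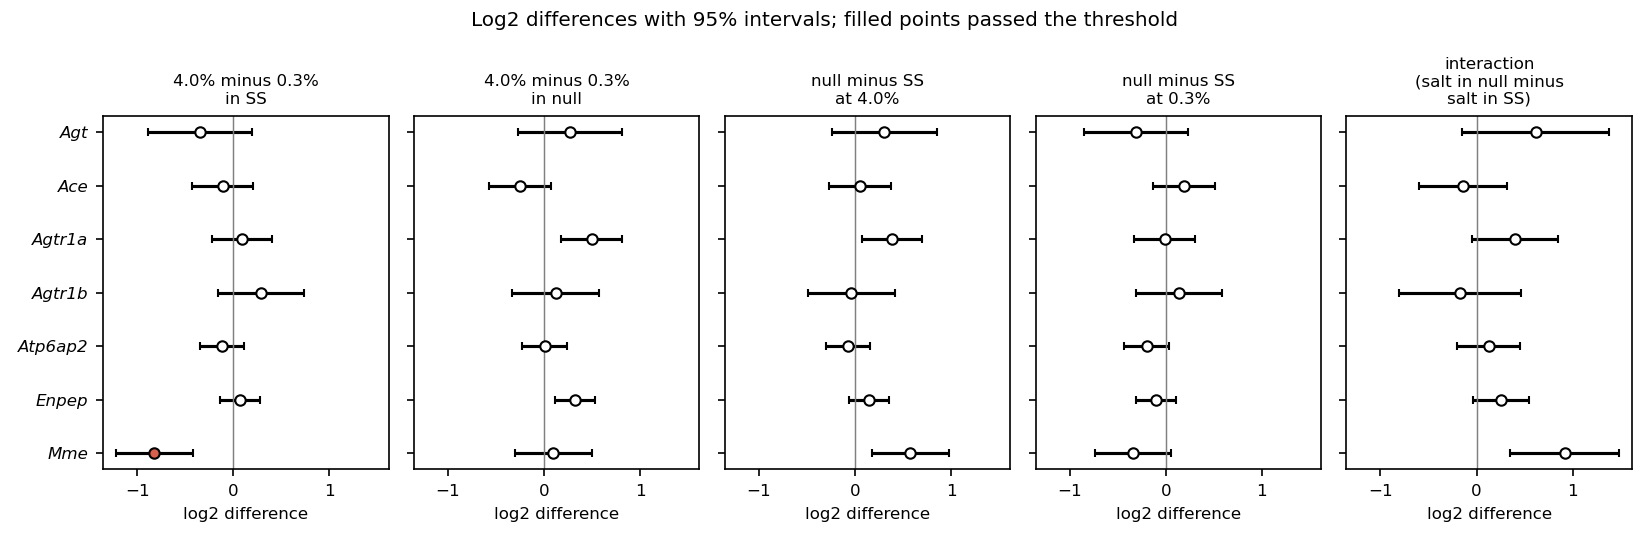
Log2 differences of the 7 genes in the 5 comparisons, with 95% intervals (x axis, log2 scale; y axis, gene); filled points passed an adjusted p of 0.05. The single filled point is Mme for salt in SS rats, and the intervals of Agtr1a and Enpep for salt in rats labelled null lie above 0 without passing.

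Neprilysin is a membrane peptidase that degrades angiotensins, natriuretic peptides, bradykinin and endothelin, and in the kidney it is abundant on the proximal tubule brush border. Mme had normalized counts of 2034, 2676, 1669, 1849 and 1354 in SS rats 1 to 5 on high salt, against 3114, 3397, 2601, 4152 and 3412 in SS rats on low salt. All but 1 of the rats on high salt lay below the low salt range, and the exception, rat 2, was just above the lowest rat on low salt. Mme averaged 1917 ± 493 on high salt and 3335 ± 562 on low salt (SD, n = 5 each), a log2 difference of -0.82 ± 0.19 (SE, 95% interval -1.22 to -0.42, limma adjusted p = 0.00572), or 0.567 of the low salt level. In rats labelled null the counts were 2541, 2964, 2592, 3223 and 2675 on high salt, against 2938, 2977, 3810.5, 1425 and 2526 on low salt. Here the groups overlapped throughout, with the low salt rats spread widely around the high salt ones, and the log2 difference was 0.098 ± 0.19 (adjusted p = 0.801). The lowest low salt value belonged to rat 4, and without that library and SS high salt rat 1 the difference in rats labelled null was -0.12 (limma adjusted p = 0.695).

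On high salt Mme was 0.58 ± 0.19 on the log2 scale in rats labelled null relative to SS rats, which missed the threshold (limma adjusted p = 0.0646). It passed without SS high salt rat 2 (0.71, adjusted p = 0.036), with both libraries that stood apart left out (0.61, adjusted p = 0.0262), with these 2 groups fitted alone (adjusted p = 0.035) and with DESeq2 (adjusted p = 0.0405). That is 1 of 10 refits without 1 library (adjusted p up to 0.137) and 3 of 12 other settings (adjusted p up to 0.186). On low salt the genotypes differed by -0.34 ± 0.19 (adjusted p = 0.358), or by -0.12 with both libraries that stood apart left out (adjusted p = 0.71). The test of the difference between the salt effects gave 0.92 ± 0.27 with a 95% interval of 0.35 to 1.48, an unadjusted p of 0.00278 and a limma adjusted p of 0.0724. The salt effect on Mme is thus called in SS rats and not in rats labelled null, but the difference between genotypes in that effect is not called. It passed in 2 of 20 refits without 1 library, those without null low salt rat 3 (1.05, adjusted p = 0.0305) and SS high salt rat 2 (1.05, adjusted p = 0.0486). Over the 20 refits the values were 0.70 to 1.05, with adjusted p-values up to 0.134. Of 11 other settings it passed only with DESeq2 (0.83, adjusted p = 0.0443), and the values went down to 0.65 and the adjusted p-values up to 0.515.

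Other measures moved with salt in SS rats beside Mme. The 6 loop of Henle markers summed to 79706 to 135010 normalized counts on high salt, against 197170 to 290380 on low salt, and the 8 fibroblast markers to 27932 to 44379.7, against 13682 to 20978. The 8 T cell markers summed to 1428 to 2229 on high salt, against 708 to 1159 on low salt, and the 5 adipocyte markers in the table to 662 to 899, against 1011 to 1265. The groups did not overlap in any of these 4 lists. Their part in the fall of Mme was not tested. With a proximal tubule score, the mean log2 level of those 16 markers, as a covariate, Mme differed by -0.78 (limma adjusted p = 0.0187). The SS groups did not overlap in the mitochondrial share, so salt and that share cannot be told apart in them. With that share as a covariate, Mme differed by -0.76 and no longer passed (adjusted p = 0.127). Scaled to library totals it was -0.43 (adjusted p = 0.0657). With mitochondrial genes left out of those totals it was -0.75 (adjusted p = 0.0117). Leaving out each of the 10 SS rats in turn kept the call, with differences of -0.95 to -0.70 and adjusted p-values of 0.00278 to 0.0164.

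**Figure D2:**
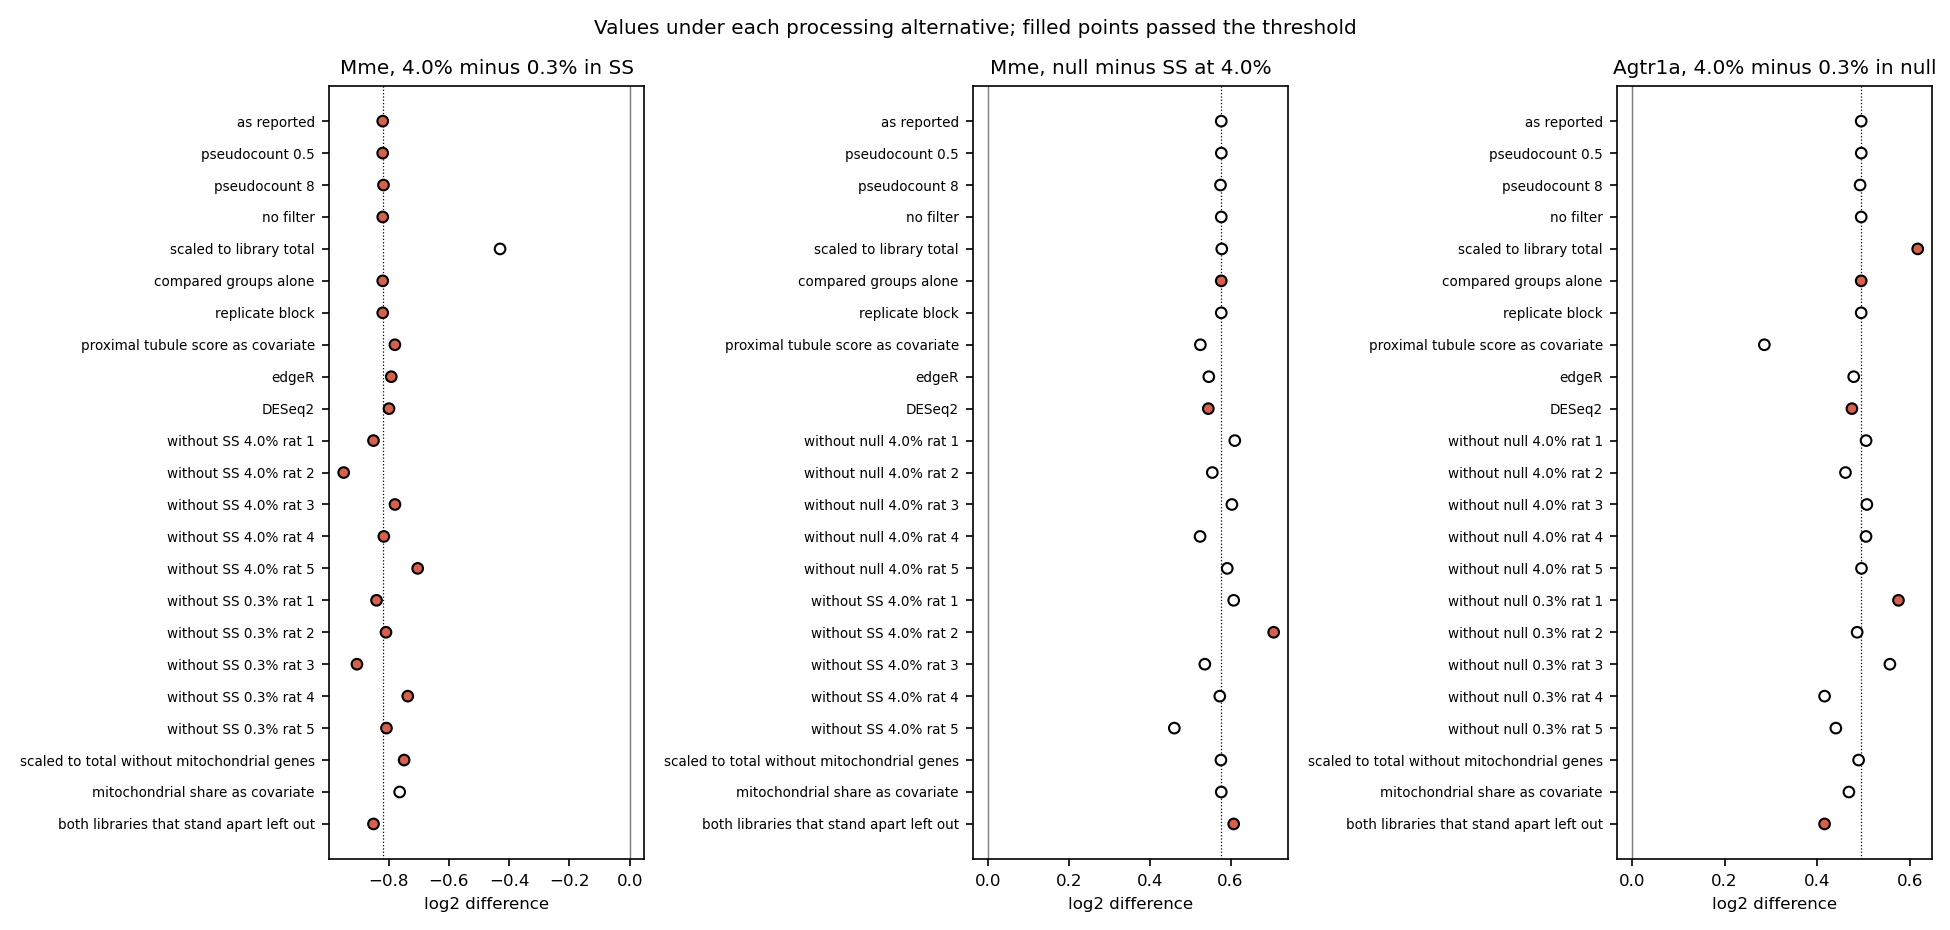
Log2 difference (x axis) of Mme and Agtr1a under each way of processing (y axis): Mme for high minus low salt in SS rats, Mme for null minus SS on high salt, and Agtr1a for high minus low salt in rats labelled null; filled points passed an adjusted p of 0.05. The salt difference of Mme in SS rats is filled in all settings but the scaling to library totals and the mitochondrial covariate, whereas most points in the other panels are open.

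The promoters of Mme, Prep, Anpep and Enpep are shown here. Mme, Prep and Anpep varied together across the libraries, with Pearson's r of log2 values from 0.86 to 0.93. Enpep had r = 0.33 with Mme, 0.36 with Prep and 0.54 with Anpep, or 0.63, 0.76 and 0.91 with group means removed. Agt, which followed Mme with r = 0.77, had no promoter sequence in the sources used here. These promoters were chosen after the values of the genes were seen. Each is the 250 bases before the RefSeq gene start in build GRCr8, 5′ to 3′ on the gene's own strand, in lower case with motif matches in capitals. They lie at chr2:149872247-149872496 (plus strand), chr20:50138338-50138587 (plus strand), chr1:143195102-143195351 (minus strand) and chr2:220526219-220526468 (minus strand).
Mme: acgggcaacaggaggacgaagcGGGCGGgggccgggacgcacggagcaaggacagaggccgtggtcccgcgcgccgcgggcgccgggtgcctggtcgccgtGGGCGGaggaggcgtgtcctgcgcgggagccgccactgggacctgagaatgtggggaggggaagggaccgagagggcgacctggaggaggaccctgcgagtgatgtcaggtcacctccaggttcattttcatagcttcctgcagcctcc
Prep: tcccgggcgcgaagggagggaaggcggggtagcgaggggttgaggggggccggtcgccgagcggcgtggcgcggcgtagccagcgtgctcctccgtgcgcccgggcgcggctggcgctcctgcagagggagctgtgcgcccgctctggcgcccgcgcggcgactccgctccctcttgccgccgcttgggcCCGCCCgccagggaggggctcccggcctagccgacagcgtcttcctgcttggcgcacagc
Anpep: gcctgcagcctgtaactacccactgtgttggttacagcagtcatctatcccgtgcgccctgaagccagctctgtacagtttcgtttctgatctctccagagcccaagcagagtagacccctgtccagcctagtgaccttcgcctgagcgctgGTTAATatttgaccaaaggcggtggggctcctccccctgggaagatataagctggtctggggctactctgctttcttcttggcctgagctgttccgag
Enpep: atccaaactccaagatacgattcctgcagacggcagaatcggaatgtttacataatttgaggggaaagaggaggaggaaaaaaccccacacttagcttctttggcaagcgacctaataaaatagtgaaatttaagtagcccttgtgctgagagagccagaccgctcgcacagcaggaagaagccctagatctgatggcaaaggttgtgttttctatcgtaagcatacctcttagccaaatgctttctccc
Both strands were searched for the GC box GGGCGG, the CCAAT box CCAAT, the TATA box TATAAA, an HNF1 site core GTTAAT, the HNF4 site CAAAGTCCA and the antioxidant response element TGACNNNGC. The capitals mark 2 GC boxes in Mme, 1 GC box in Prep and 1 HNF1 core in Anpep, while Enpep had none of these letters in this window. Of 33469 RefSeq promoters of the same length 30.5% held the GC box and 6.45% the HNF1 core. The shares were 34.0% for the CCAAT box, 12.9% for the TATA box, 0.338% for the HNF4 site and 10.1% for the antioxidant response element. The GC content was 70.4% in Mme, 78.0% in Prep, 55.6% in Anpep and 45.2% in Enpep. A match is a run of letters and not a measured binding site.

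Agt encodes angiotensinogen, the precursor of the angiotensins, made mainly by the liver and also by the proximal tubule. Its normalized counts were 615, 603, 603, 628 and 521 in rats labelled null on high salt, 591, 554, 755, 252 and 459 in their low salt counterparts, 745, 609.5, 518, 506 and 211 in SS rats on high salt and 524, 581, 501, 716 and 760.5 in SS rats on low salt. The groups overlapped in every comparison. The counts of rats labelled null on high salt lay within 521 to 628, while 1 rat in each of 2 other groups was far below its group, null low salt rat 4 and SS high salt rat 5. The salt difference was -0.34 ± 0.26 in SS rats (limma adjusted p = 0.397), which changed sign to 0.045 when scaled to library totals, and 0.27 ± 0.26 in rats labelled null (adjusted p = 0.575). Null minus SS was 0.31 ± 0.26 on high salt and -0.31 ± 0.26 on low salt (adjusted p = 0.478 and 0.563). With both libraries that stood apart left out, the salt difference in rats labelled null was 0.030 (adjusted p = 0.952). Null minus SS on low salt was then -0.067 (adjusted p = 0.903). The interaction of 0.61 ± 0.37 had a 95% interval of -0.15 to 1.38 (adjusted p = 0.399). These intervals are wide, so differences of the size seen for Mme are not excluded for Agt.

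Ace, the endothelial and tubular enzyme that makes angiotensin II and breaks down bradykinin, had normalized counts of 576, 631, 437, 484 and 457 in rats labelled null on high salt, 571, 688, 558, 549 and 697 in their low salt counterparts, 437, 562, 646, 390.3 and 478 in SS rats on high salt and 708, 562, 380.4, 628 and 457 in SS rats on low salt. All 4 groups overlapped, with means between 502 and 613. The salt difference was -0.11 ± 0.16 in SS rats (95% interval -0.43 to 0.21, limma adjusted p = 0.675), which changed sign to 0.28 when scaled to library totals and to 0.34 with the mitochondrial share as a covariate. It was -0.25 ± 0.16 in rats labelled null (95% interval -0.57 to 0.071, adjusted p = 0.348). Null minus SS was 0.050 ± 0.16 on high salt and 0.19 ± 0.16 on low salt (adjusted p = 0.87 and 0.543), the second 0.46 and past the threshold when scaled to library totals (adjusted p = 0.0284), and the interaction was -0.14 ± 0.22 (adjusted p = 0.785).

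Enpep encodes aminopeptidase A, which removes the first residue of angiotensin II to give angiotensin III. Its normalized counts were 3795, 3643, 3820.4, 4001 and 3210.4 in rats labelled null on high salt, against 3275, 3058, 3383, 2233 and 2974 in those on low salt. All but 1 of the high salt values were above all low salt values, and rat 5 fell within the low salt range. The difference of 0.32 ± 0.10 (95% interval 0.11 to 0.53) missed the threshold (limma adjusted p = 0.0617), and with the proximal tubule score as a covariate it was 0.13 (adjusted p = 0.481). It passed in 4 of 12 other settings, with the groups fitted alone (0.0498), with DESeq2 (0.0379), with the mitochondrial covariate (0.042) and scaled to library totals (0.0216). With both libraries that stood apart left out it was 0.22 (adjusted p = 0.121). In SS rats Enpep had 3090.2, 3624, 2983, 3376 and 3617 on high salt, against 2742, 3432, 3016, 3163 and 3616 on low salt. These overlapped, with a difference of 0.066 ± 0.10 (95% interval -0.14 to 0.27, adjusted p = 0.704). The value scaled to library totals was 0.46 and passed (adjusted p = 0.00203). Null minus SS was 0.15 ± 0.10 on high salt, -0.011 with the proximal tubule score as a covariate, and -0.11 ± 0.10 on low salt, 0.16 when scaled to library totals (adjusted p = 0.361 and 0.608 as fitted). The interaction was 0.25 ± 0.14 (adjusted p = 0.359), and -0.015 when scaled to library totals.

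Agtr1a encodes the main rodent AT1 receptor, through which angiotensin II constricts vessels. Its normalized counts were 1789, 2023, 1781, 1789.6 and 1839 in rats labelled null on high salt, against 1634, 1276, 1552, 1050.1 and 1123 in those on low salt. Every high salt value was above every low salt value. Agtr1a averaged 1844 ± 103 on high salt and 1327 ± 258 on low salt (SD, n = 5 each), a difference of 0.49 ± 0.15 (95% interval 0.18 to 0.81) that fell just short of the threshold (limma adjusted p = 0.0557). It passed with these 2 groups fitted alone (adjusted p = 0.00933), with DESeq2 (adjusted p = 0.0291), scaled to library totals (adjusted p = 0.0295), with both libraries that stood apart left out (adjusted p = 0.0494) and without null low salt rat 1 (adjusted p = 0.0418). With the proximal tubule score as a covariate it was 0.29 (adjusted p = 0.366).

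In SS rats Agtr1a had 945, 1653, 1109.7, 1735 and 1828 on high salt, against 1262, 1121, 1447, 1353 and 1436 on low salt. The high salt values fell on both sides of the low salt range, with rats 1 and 3 below it and rats 2, 4 and 5 above it, and the difference was 0.094 ± 0.15 (adjusted p = 0.721). The value scaled to library totals was 0.48 and passed (adjusted p = 0.0185). Between genotypes the difference was 0.39 ± 0.15 on high salt (95% interval 0.075 to 0.70, limma adjusted p = 0.107). It passed without SS high salt rat 5 (0.48, adjusted p = 0.0441). On low salt it was -0.012 ± 0.15 (adjusted p = 0.978), with a sign that varied between ways of processing, up to 0.26 when scaled to library totals. The interaction was 0.40 ± 0.21 (adjusted p = 0.334).

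Agtr1b, the second rodent AT1 receptor gene, had normalized counts of 131, 131, 97.7, 165 and 147 in rats labelled null on high salt, 115, 135, 109, 111 and 143 in their low salt counterparts, 111, 263, 131, 106 and 114 in SS rats on high salt and 116, 77.8, 137, 141 and 95 in SS rats on low salt. SS high salt rat 2 was apart from all other libraries, and the groups otherwise overlapped. With salt it differed by 0.29 ± 0.22 in SS rats and by 0.12 ± 0.22 in the rats labelled null (limma adjusted p = 0.384 and 0.783). Scaled to library totals the difference in SS rats was 0.68 and passed (adjusted p = 0.018). Without SS high salt rat 2 it was 0.053 in SS rats (adjusted p = 0.879). Null minus SS was -0.035 ± 0.22 on high salt, 0.20 with the proximal tubule score as a covariate, and 0.14 ± 0.22 on low salt (adjusted p = 0.94 and 0.783 as fitted). The interaction was -0.17 ± 0.31 (adjusted p = 0.814). Agtr1a and Agtr1b are close paralogs, and how reads that match both were counted is not given in the sources used here, so the split between them is uncertain.

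Atp6ap2 encodes the prorenin receptor, which also serves as an accessory subunit of the vacuolar proton pump. Its normalized counts were 7174, 4996, 7272, 6907 and 6985 in rats labelled null on high salt, 6629, 6645, 6697, 7067 and 5855 in their low salt counterparts, 8548, 6511, 6487, 7421 and 6033 in SS rats on high salt and 8093, 7115, 9193, 6226 and 7369.5 in SS rats on low salt. All groups overlapped, and null high salt rat 2 was the lowest of the 20. The salt difference was -0.12 ± 0.11 in SS rats (95% interval -0.35 to 0.12), 0.27 when scaled to library totals, and 0.0086 ± 0.11 in rats labelled null (95% interval -0.22 to 0.24). Null minus SS was -0.072 ± 0.11 on high salt and -0.20 ± 0.11 on low salt, 0.070 when scaled to library totals. The interaction was 0.13 ± 0.16. The limma adjusted p-values of these 5 comparisons ran from 0.358 to 0.977. Of the 18 other subunits of that pump that were tested, 1 fell on high salt in SS rats, against 7.73% of all genes tested. None passed in the other 4 comparisons. The subunit that fell was Atp6v0d1, of the membrane sector (-0.44 ± 0.079, limma adjusted p = 0.000779), which missed the threshold when scaled to library totals (-0.046, adjusted p = 0.737). The median of the 18 for salt in SS rats was -0.13.

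**Figure D3:**
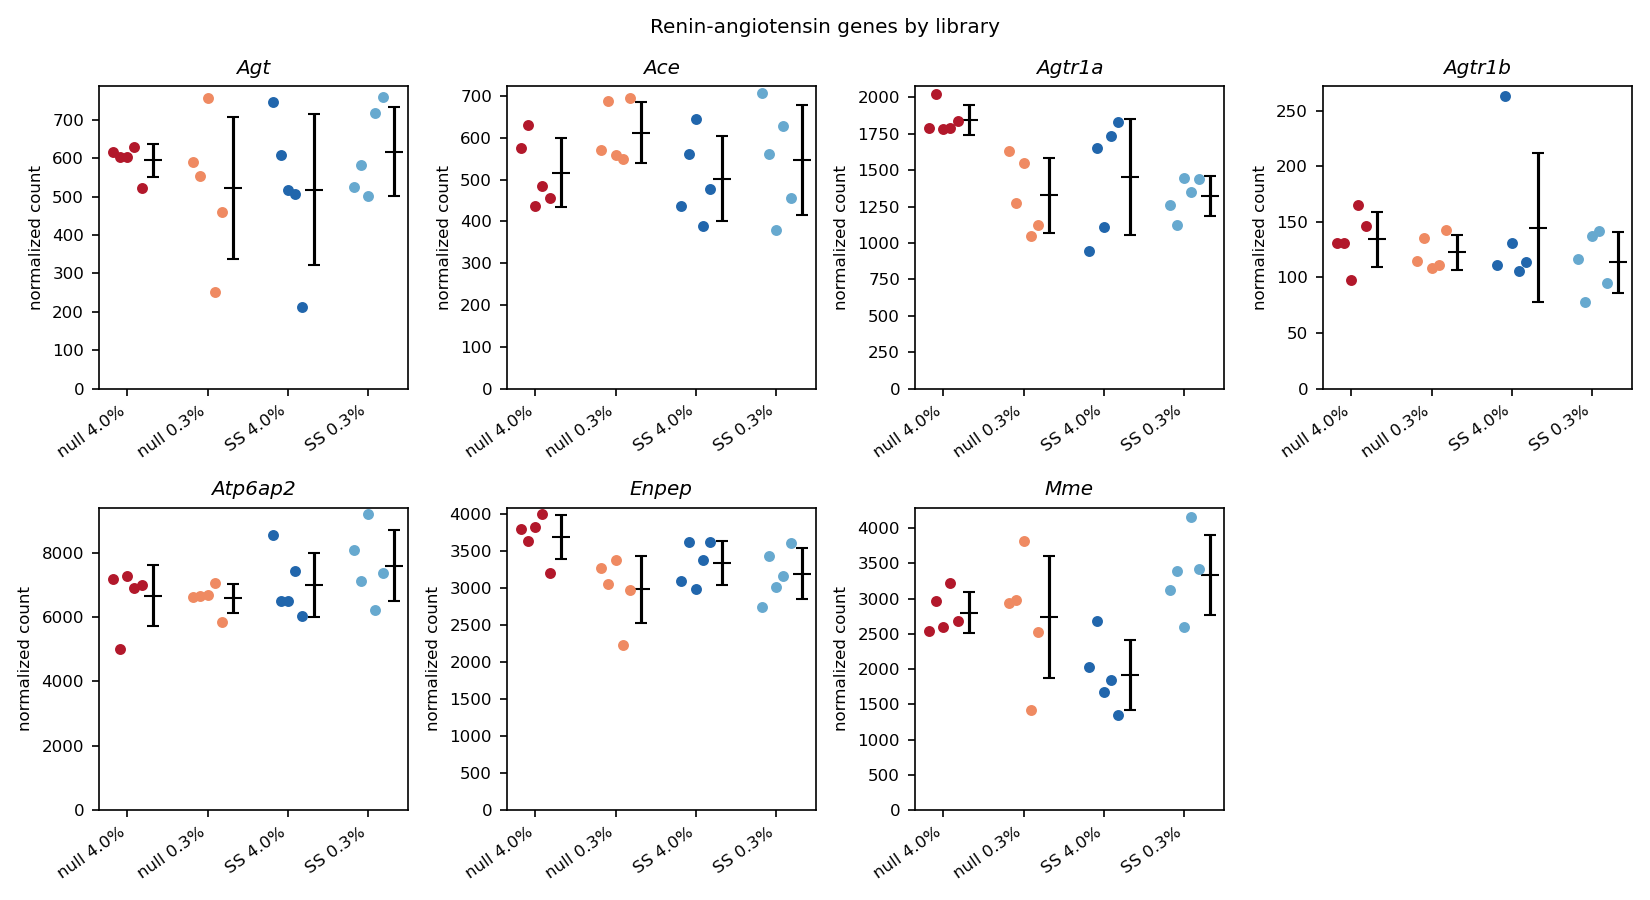
Normalized counts of the 7 genes in each library (y axis, linear from 0) by group (x axis: rats labelled null on 4.0% and 0.3% NaCl, then SS rats on 4.0% and 0.3% NaCl); each point is 1 rat and the bars give the mean and SD. For Mme the SS high salt group averages 1917, below the other 3 groups, and for Agtr1a the null high salt values, 1781 to 2023, lie above all null low salt values.

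Of 18 other renin-angiotensin genes listed here, 12 were tested, and Agtr2, Ctsg, Cma1, Cpa3, Mrgprd and Cyp11b2 were not analysed here. On high salt in SS rats 1 of the 12 rose and 2 fell, against 9.52% and 7.73% of all genes tested. In rats labelled null 1 rose, against 3.06% of all genes. Between genotypes on high salt none was higher and 2 were lower in rats labelled null, against 3.7% and 4.82% of all genes. None passed on low salt, and 2 passed for the interaction, against 2.53% of all genes. The medians of the 12 were -0.085, -0.13, -0.079, -0.067 and -0.030 in the order salt in SS rats, salt in rats labelled null, genotype on high salt, genotype on low salt and interaction.

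Mas1, the receptor of a vasodilator angiotensin fragment, had normalized counts of 95 to 144 in rats labelled null and 36.9 to 127 in SS rats on high salt, and of 103 to 247 in rats labelled null and 60.3 to 167 in SS rats on low salt. The genotypes overlapped on both diets, and Mas1 passed on neither (0.55 ± 0.30 and 0.80 ± 0.30, adjusted p = 0.243 and 0.166). Scaled to library totals the low salt difference was 1.07 and passed (adjusted p = 0.0175).

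Among the other peptidases, Anpep and Prep fell with Mme on high salt in SS rats. Anpep is aminopeptidase N, a brush border enzyme that acts on angiotensin III, and had 10242, 11085, 8897, 10388 and 11407 normalized counts on high salt, against 13257, 17174, 13341, 18028 and 18187 on low salt, with no overlap (-0.61 ± 0.14, limma adjusted p = 0.00557). Prep, a prolyl endopeptidase that can release a vasodilator fragment from angiotensins, had 1173, 1596, 1165, 1480.5 and 1202 on high salt, against 2161, 2211, 1679, 2911 and 2409 on low salt, also with no overlap (-0.77 ± 0.19, adjusted p = 0.00693). Like Mme, both missed the threshold when scaled to library totals (adjusted p = 0.203 for Anpep and 0.0842 for Prep) and with the mitochondrial share as a covariate (adjusted p = 0.184 and 0.203). In rats labelled null neither passed (Anpep 0.16 ± 0.14, adjusted p = 0.525, and Prep -0.0076 ± 0.19, adjusted p = 0.988). The interaction passed for Anpep (0.78 ± 0.20, adjusted p = 0.0424) and not for Prep (0.76 ± 0.26, adjusted p = 0.125). The Anpep interaction passed in only 6 of 20 refits that each left out 1 library, with values of 0.63 to 0.89 and adjusted p-values of 0.0143 to 0.0858: those without null high salt rat 5, null low salt rat 3, SS high salt rats 4 and 5 and SS low salt rats 1 and 3. It passed in 5 of 11 other settings and was lost scaled to library totals (adjusted p = 0.128), with the replicate number as a block (0.0738), with the proximal tubule score as a covariate (0.631), scaled to totals without mitochondrial genes (0.0626), with the mitochondrial covariate (0.123) and with both libraries that stood apart left out (0.075). Between genotypes on high salt neither passed as fitted (adjusted p = 0.1 for Anpep and 0.0903 for Prep), though Anpep did with the groups fitted alone (adjusted p = 0.0448) and Prep with the groups fitted alone (adjusted p = 0.0389) and with DESeq2 (0.0492).

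Prcp encodes a lysosomal prolylcarboxypeptidase that inactivates angiotensin II, and it moved in the opposite direction. It had 498, 491, 457, 486 and 468 normalized counts in SS rats on high salt, against 291, 265, 337, 304 and 278 on low salt, and 395, 368, 416, 412 and 340.3 in rats labelled null on high salt, against 324, 317, 332, 387 and 351 on low salt. Prcp rose with salt in SS rats with no overlap (0.70 ± 0.087, limma adjusted p = 2.12e-05), in all 12 other settings and without any 1 of the 10 libraries. In rats labelled null the groups overlapped (0.17 ± 0.087, adjusted p = 0.238). The interaction was -0.53 ± 0.12 (adjusted p = 0.0243) and passed in all 20 refits without 1 library, with adjusted p-values of 0.0206 to 0.0491, and in 8 of 11 other settings, the exceptions being the proximal tubule score (0.329), the mitochondrial share (0.0872) and both libraries that stood apart left out (0.0588). On high salt Prcp was lower in rats labelled null than in SS rats with no overlap (-0.32 ± 0.087, adjusted p = 0.0286). That call was lost with the proximal tubule score as a covariate (adjusted p = 0.102), scaled to library totals (0.17) and without null rat 2 (adjusted p = 0.0645), null rat 5 (0.0827), SS rat 1 (0.0669) or SS rat 2 (0.0582).

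Lnpep, the insulin-regulated aminopeptidase that binds angiotensin IV, rose with salt in rats labelled null, with 2089.5 to 2495 normalized counts on high salt, against 1758 to 1987 on low salt (0.27 ± 0.062, limma adjusted p = 0.0157). It passed in all 12 other settings and in 9 of 10 refits without 1 library, missing it without null high salt rat 5 (adjusted p = 0.0509). In SS rats it differed by 0.10 ± 0.062 (adjusted p = 0.269), or by 0.49 when scaled to library totals, which passed (adjusted p = 0.000383), and the interaction was 0.17 ± 0.088 (adjusted p = 0.328), -0.10 when scaled to library totals. Ctsd encodes the lysosomal protease cathepsin D, which can cleave angiotensinogen. On high salt it had 23523, 20147, 25872, 24418 and 22318 normalized counts in rats labelled null, against 51954, 35412, 28139, 24937 and 29636 in SS rats, where rat 1, the library that stood apart, was the highest. The difference was -0.50 ± 0.14 (adjusted p = 0.0324), but without SS rat 1 it was -0.34 (adjusted p = 0.0873), and it also missed the threshold without any 1 of null rats 1, 2, 4 and 5 and SS rat 2 (adjusted p from 0.0549 to 0.082) and scaled to library totals (adjusted p = 0.0684), with the groups fitted alone (0.0877), with the proximal tubule score as a covariate (0.102) and with both libraries that stood apart left out (0.0802). With salt in SS rats Ctsd differed by 0.36 ± 0.14 (adjusted p = 0.0892) and passed scaled to library totals (adjusted p = 0.000525), with DESeq2 (0.0355) and scaled to totals without mitochondrial genes (0.0325). Agtrap, which binds the AT1 receptor and promotes its internalization, differed by -0.24 ± 0.094 with salt in SS rats, 0.14 when scaled to library totals, and by -0.27 ± 0.094 in rats labelled null, where high salt values (3009 to 3682) lay below low salt values (4105 to 4234). Neither passed (adjusted p = 0.0742 and 0.0852). In SS rats it passed with both libraries that stood apart left out (adjusted p = 0.00387), and in rats labelled null with the groups fitted alone (adjusted p = 0.0158) and with both libraries that stood apart left out (0.0441).

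**Figure D4:**
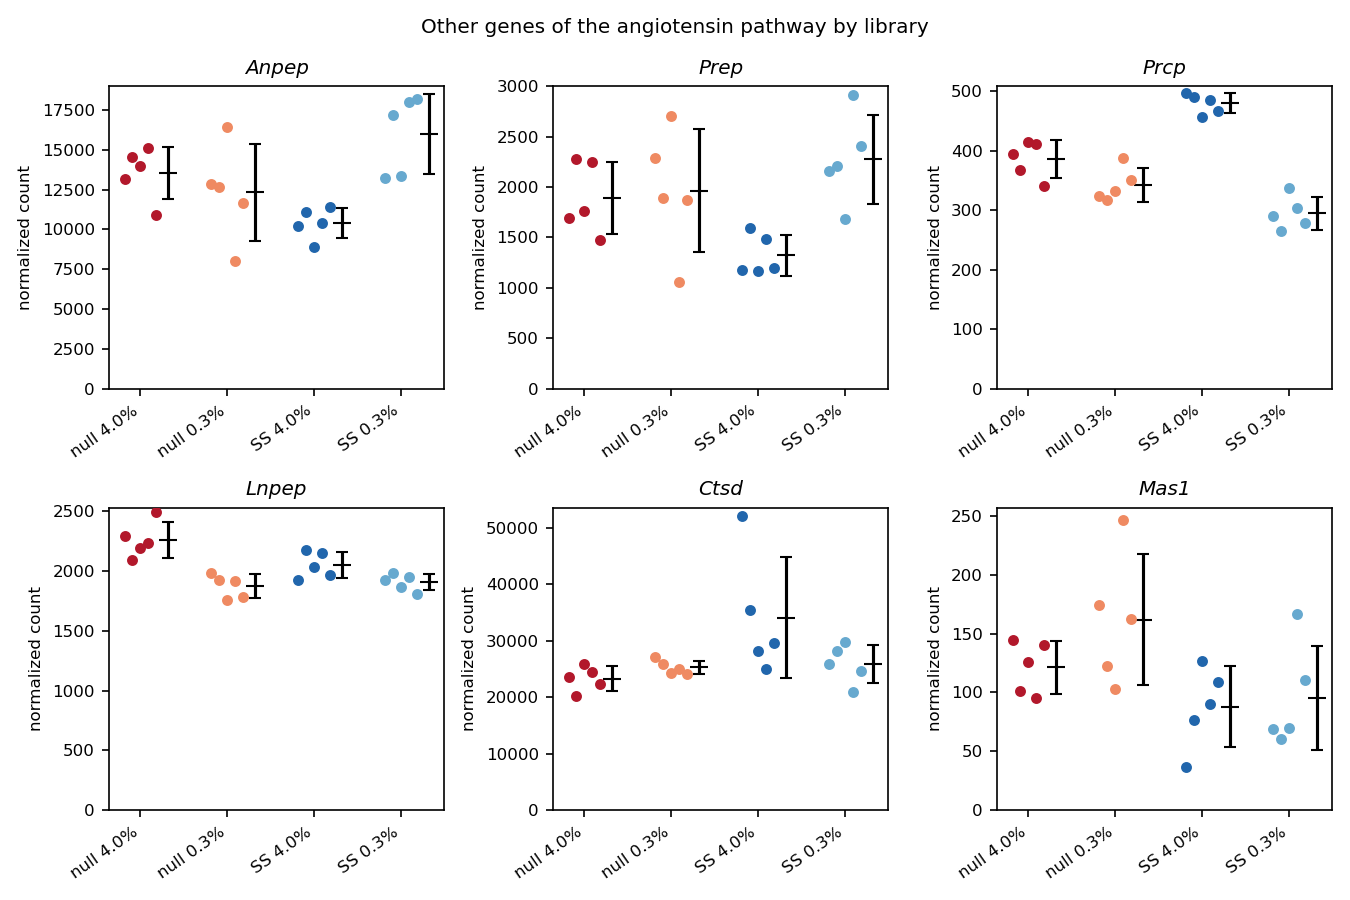
Normalized counts of Anpep, Prep, Prcp, Lnpep, Ctsd and Mas1 in each library (y axis, linear from 0) by group (x axis: rats labelled null on 4.0% and 0.3% NaCl, then SS rats on 4.0% and 0.3% NaCl); points are rats and bars the mean and SD. Lnpep in rats labelled null on high salt, 2089.5 to 2495, lies above those on low salt, 1758 to 1987, and Prcp in SS rats on high salt, 457 to 498, lies above the other groups.

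The brush border peptidase list, which shares Anpep with the list above, holds other renal peptidases, most of them on the tubule brush border as neprilysin is, though Lap3 and Cndp2 encode cytosolic enzymes. Of its 10 tested genes, 6 fell and 1 rose on high salt in SS rats, against 7.73% and 9.52% of all genes tested, with a median of -0.39. None of the 10 passed in rats labelled null, with a median of 0.17. Besides Anpep, the genes that fell were Mep1a and Mep1b, the subunits of meprin (-0.56 and -0.72, limma adjusted p = 0.00721 and 0.0177), and Ggt1, Cndp2 and Lap3. Scaled to library totals, Mep1a and Mep1b did not pass (adjusted p = 0.329 and 0.183), nor with the mitochondrial covariate (0.121 and 0.0968), and Mep1b missed the threshold with the proximal tubule score (0.053). The gene that rose was Dpep1, the renal dipeptidase, with 887 to 4087 normalized counts in SS rats on high salt, against 638 to 1543 on low salt, which overlapped (1.00 ± 0.30, adjusted p = 0.0267). It passed in 6 of 10 refits without 1 library (adjusted p of 0.000784 to 0.0828), losing the call without high salt rats 2, 4 and 5 and low salt rat 2, and it also lost it with the SS groups fitted alone (adjusted p = 0.0981) and with the mitochondrial share as a covariate (0.366). In rats labelled null Dpep1 had 2591 to 4719 on high salt, against 1830.5 to 2485 on low salt, with no overlap, but missed the threshold (0.92 ± 0.30, adjusted p = 0.0707). There it passed in 5 of 12 other settings, scaled to library totals (adjusted p = 0.0399), with the groups fitted alone (0.000754), with edgeR (0.0499), with DESeq2 (0.0417) and with both libraries that stood apart left out (0.0288). Of the 16 proximal tubule markers, 3 fell in SS rats, with a median of -0.068. On high salt 2 of the 10 peptidases were higher in rats labelled null, Mep1a and Mep1b, against 3.7% of all genes tested. The median was 0.26 (0.46 for Mep1a and 0.68 for Mep1b, adjusted p = 0.0404 and 0.0424). The calls of Mep1a and Mep1b there held in only 3 of 10 refits that each left out 1 library (SS rats 2, 4 and 5 for Mep1a, and null rat 5 and SS rats 2 and 4 for Mep1b), with adjusted p-values of up to 0.115 for Mep1a and 0.0997 for Mep1b. Mep1a also lost the call scaled to library totals (adjusted p = 0.0856), with the replicate number as a block (0.06) and with the proximal tubule score as a covariate (0.238), and Mep1b scaled to library totals (adjusted p = 0.0779), with the replicate number as a block (0.053) and with the proximal tubule score as a covariate (0.154). For the interaction 2 of the 10 passed, both above 0, against 0.774% of all genes tested. They were Anpep and Mep1a (0.87 ± 0.19, adjusted p = 0.0206), and the median was 0.48. Mep1a passed in all 20 refits without 1 library, and in 8 of 11 other settings, losing the call scaled to library totals (adjusted p = 0.0823), with the proximal tubule score as a covariate (0.494) and with the mitochondrial covariate (0.0561). Its value with the proximal tubule score was 0.50. On low salt none of the 10 passed between genotypes, with a median of -0.33. The proximal tubule markers had medians of 0.24 for salt in rats labelled null, 0.20 and -0.19 between genotypes on high and low salt and 0.36 for the interaction. Their part in these differences was not tested.

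Of 20 genes of AT1 receptor signalling, 5 rose and none fell with salt in SS rats, against 9.52% and 7.73% of all genes tested. None of the 20 passed in rats labelled null. The medians were -0.047 and 0.046. The 5 were Plcb2 and Plcb3, which encode phospholipases C, Arhgef1, an activator of small GTPases downstream of the receptor, the beta-arrestin Arrb2 and the G protein brake Rgs2. Plcb2 had 159.8 to 280.1 normalized counts in SS rats on high salt, against 83.6 to 120.3 on low salt (1.14 ± 0.15, limma adjusted p = 3.24e-05). Arhgef1 rose by 0.45 ± 0.083 and Arrb2 by 0.44 ± 0.089 (adjusted p = 0.000841 and 0.00197), the call of Arrb2 being lost with the mitochondrial covariate (adjusted p = 0.0511). Between genotypes on high salt Plcb2 was lower in rats labelled null (-0.64 ± 0.15, adjusted p = 0.013), and Rgs5, a G protein brake of mural cells, and Rock2, a kinase that promotes smooth muscle contraction, were higher. That is 2 of the 20 higher and 1 lower, against 3.7% and 4.82% of all genes tested. Rgs5 had 2967 to 4173 in rats labelled null, against 1161 to 2902 in SS rats (0.82 ± 0.19, adjusted p = 0.0123). Of the 7 pericyte and mesangium markers 2 were higher in rats labelled null there, Abcc9 and Notch3, and 6 lay above 0, with a median of 0.37 and sums of 11022 to 13823, against 6909 to 11563 in SS rats. Of the 15 endothelial markers 6 were higher and none lower, with a median of 0.33 and sums of 83652 to 102980, against 50175 to 90757 in SS rats. The shares of all genes tested to set beside both marker counts are 3.7% higher and 4.82% lower. The part of these marker lists in the differences of Rgs5 and Rock2 was not tested. The salt effects differed between genotypes for Plcb2 (-1.07 ± 0.21, adjusted p = 0.0111), in all 20 refits without 1 library, and for Arhgef1 (-0.45 ± 0.12, adjusted p = 0.0436), in only 6 of those 20 (without null high salt rat 2, null low salt rats 1 and 3, SS high salt rats 1 and 4 and SS low salt rat 4), with adjusted p-values of 0.0153 to 0.0881. The Arhgef1 interaction was also lost with the replicate number as a block (adjusted p = 0.0642), with the mitochondrial covariate (0.0814) and with both libraries that stood apart left out (0.0769). With the proximal tubule score as a covariate the adjusted p-values were 0.267 for Plcb2 and 0.541 for Arhgef1, and on high salt 0.0727 for Plcb2 and 0.0534 for Rgs5. On low salt Arhgef1 was the only one that passed (0.36 ± 0.083, adjusted p = 0.0485), in 2 of 10 refits without 1 library (null rat 3 and SS rat 4, adjusted p of 0.0104 to 0.137) and in 5 of 12 other settings (adjusted p from 0.00329 to 0.202 over the 12). The medians between genotypes were 0.13 on high salt and 0.15 on low salt. Of all genes tested 1.76% passed below 0 for the interaction, and 0.452% were higher in rats labelled null on low salt. Phospholipase Plcb2 is known mainly from blood cells, and the 8 macrophage markers summed to 26161 to 36028 in SS rats on high salt, against 15317 to 26536 on low salt, which overlapped. The 8 T cell markers all rose with salt in SS rats, against 9.52% of all genes tested. On high salt 3 of them were lower in rats labelled null than in SS rats, against 4.82% of all genes. The sums were 944 to 1246 in rats labelled null, against 1428 to 2229 in SS rats, which did not overlap. For the interaction 2 of the 8 passed, both below 0, against 1.76% of all genes. The part of either list in the change of Plcb2 was not tested.

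Of 9 kinin genes tested, which supply and break down the vasodilator bradykinin, 2 rose and 1 fell with salt in SS rats and 1 rose in rats labelled null. The shares of all genes tested were 9.52%, 7.73% and 3.06% in that order. Kng2, a kininogen gene, had 529 to 1052 normalized counts in SS rats on high salt, against 275 to 577 on low salt (0.65 ± 0.19, limma adjusted p = 0.0236), and 615 to 1021 in rats labelled null on high salt, against 376 to 571 on low salt (0.71 ± 0.19, adjusted p = 0.0345). It passed in 7 of 10 refits that each left out 1 SS rat and in 4 of 10 that left out 1 rat labelled null, with adjusted p-values of 0.0125 to 0.0774 and 0.0353 to 0.084. The call was lost without SS high salt rat 3 and SS low salt rats 4 and 5, and without null high salt rats 1, 3 and 4 and null low salt rats 2, 4 and 5. In SS rats the call was also lost with the groups fitted alone (adjusted p = 0.0637) and with the mitochondrial covariate (0.0684). With the proximal tubule score as a covariate it missed the threshold in rats labelled null (0.54, adjusted p = 0.204). Rat kininogen genes are near-identical copies, so reads may be split between them. Cpn1, a carboxypeptidase N subunit, rose by 0.38 ± 0.12 in SS rats (adjusted p = 0.0266), in 6 of 10 refits without 1 library (adjusted p of 0.0185 to 0.0716), losing the call without high salt rats 1 and 3 and low salt rats 4 and 5. Cpm, a membrane carboxypeptidase of kinins, fell in SS rats, with 793 to 1226 on high salt, against 1139 to 1483 on low salt (-0.45 ± 0.10, adjusted p = 0.00395), in all 10 refits without 1 library. It missed the threshold when scaled to library totals (-0.057, adjusted p = 0.646) and with the mitochondrial covariate (adjusted p = 0.298). In rats labelled null Cpn1 did not pass as fitted (0.39 ± 0.12, adjusted p = 0.0515), but passed scaled to library totals (adjusted p = 0.0172), with the replicate number as a block (0.0412), with edgeR (0.0464), with DESeq2 (0.0199) and with the mitochondrial covariate (0.0254). None of the 9 passed between genotypes or for the interaction.

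Several of these genes varied together from library to library. Correlations below are Pearson's r of log2 values across the 20 libraries, given as a description, since the libraries share groups, dissection and composition. Mme followed Prep with r = 0.93 and Anpep with r = 0.86, and with the group means removed the values were 0.88 and 0.75. Agt followed Mme with r = 0.77, or 0.84 with group means removed. Enpep followed Anpep with r = 0.54, or 0.91 with group means removed. Null low salt rat 4, one of the libraries that stood apart, was the lowest of its group for Mme, Agt, Enpep, Agtr1a, Anpep and Prep and the highest for Mas1. Agtr1a followed Enpep with r = 0.70, or 0.56 with group means removed. Ace and Atp6ap2 ran against each other with r = -0.54, or -0.60 with group means removed. Against the proximal tubule score r was 0.72 for Enpep, 0.55 for Agtr1a, 0.32 for Mme, 0.23 for Agt, 0.040 for Atp6ap2, -0.37 for Ace and -0.41 for Agtr1b. With group means removed the values were 0.73, 0.50, 0.11, 0.047, -0.050, -0.35 and -0.49 in that order.

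**Figure D5:**
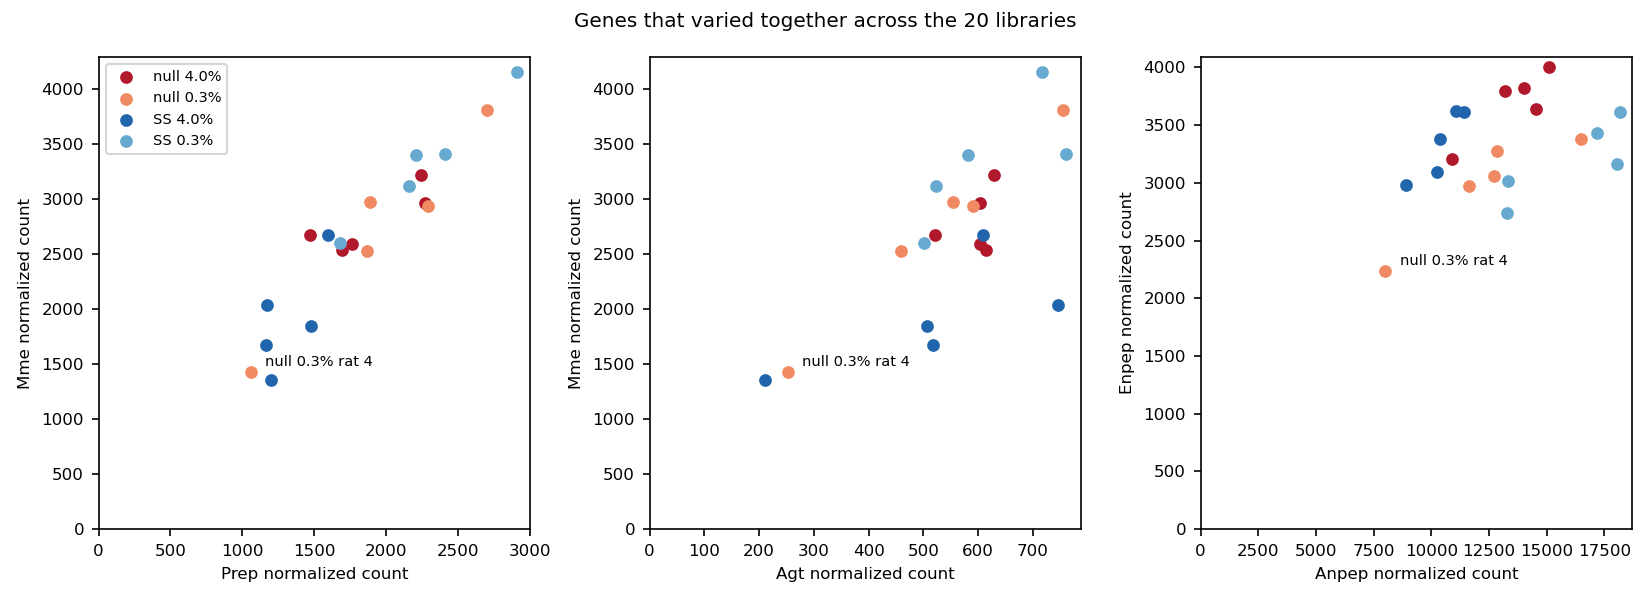
Normalized counts in each of the 20 libraries, colored by group (linear axes from 0): Mme against Prep, Mme against Agt, and Enpep against Anpep. Mme and Prep lie close to a line (r = 0.93 on log2 values), and null low salt rat 4 is labelled in each panel.

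Across all genes tested, the 5 with the highest r to Mme over the 20 libraries were Slco1a6, Osgin1, Acss2, Aadat and Gclc, with r from 0.97 down to 0.96, and from 0.93 to 0.95 with group means removed. For Agt they included Etnk2, Tmem236, Slc23a3 and Gclm, with r from 0.85 down to 0.82. For Enpep they were Cyp2d2, Olfml1, Pm20d1, Slc17a3 and Colec12, with r from 0.89 down to 0.88. For Agtr1a they were Crispld2, Ccl24, Ptpra, Sema3a and Omd, with r from 0.88 down to 0.86, and for Atp6ap2 Psmc6, Cmpk1, Cnih1, Tomm70 and Rer1, with r from 0.93 down to 0.90. The highest values were lower for Ace and Agtr1b, from 0.76 down to 0.73 with Ubtd1, Hid1, Brca2, Ncam1 and Prdm16 for Ace, and from 0.79 down to 0.70 with Atad2, Mnda, Glt8d1, CXHXorf65 and Fxyd5 for Agtr1b. Agtr1b had the fewest reads of the 7 genes.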

How the data were processed

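Poly A RNA from kidney microvessels of 20 rats was sequenced. Per the submitters' processing notes, the tools were Trim Galore, MultiQC, STAR 2.7.11b, featureCounts 2.0.6 and DESeq2 1.44 with build mRatBN7.2 (settings not given in the sources used here). What was deposited is a signal table of the authors' normalized counts, in which every value was a whole read count divided by 1 factor per library (100% of values within 1e-06), so reads could be recovered. Library composition, such as the mitochondrial share, can shift such values.

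The 7 members and the gene lists were chosen with earlier results of these data known. Values were tested as log2(normalized count + 1) with limma 3.58.1 in R 4.3.3, with all 20 libraries in 1 fit of 4 group means, genes with at least 10 in at least 5 libraries (16153 kept, 519 removed), and Benjamini-Hochberg adjustment over all genes tested. The fit was also run on simulated counts with planted changes, and the share it recovered is not given here. P-values set the differences between group means against the spread between rats. Other pathway genes are named if fixed by name (Mas1, Agtrap, Anpep, Lnpep) or past the threshold, and in each other list up to 4 with the smallest p have values; other called genes are named only. Some genes are not reported here, and the list counts leave them out. Alternatives were edgeR 4.0.16 and DESeq2 1.42.0 on recovered reads, pseudocounts of 0.5 and 8, no filter, scaling to library totals, the compared groups alone, a replicate block, covariates and leaving out libraries. No batch is given in the labels.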

Additional observations from a re-analysis of the deposited data

Results flagged for a closer look

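Of 100 groups of 5 rats looked at, the 7 members and 18 other named genes in 4 groups each, 5 groups (5%) held a rat whose gap to the next was over 0.71 of the range of the group, where chance gives about 1 in 20. Agt had 521 normalized counts in null high salt rat 5, below the 603 to 628 of the others in its group. Agtr1a had 2023 in null high salt rat 2, above the 1781 to 1839 of the others. Agtr1b had 263 in SS high salt rat 2, above the 106 to 131 of the others. Atp6ap2 had 4996 in null high salt rat 2, below the 6907 to 7272 of the others. Dpep1 had 2591 in null high salt rat 1, below the 4292 to 4719 of the others. The salt effect differed between genotypes by the test of the interaction for Anpep, with 0.78 on the log2 scale, Mep1a, with 0.87, Prcp, with -0.53, Plcb2, with -1.07, and Arhgef1, with -0.45, each salt in rats labelled null minus salt in SS rats. No member passed that test.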

How the results depend on the processing

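Over 12 other settings and 20 refits without 1 library, 833 values of the 7 members were recomputed, of which 768 kept their direction and side of the threshold, 2 lost a call, 21 gained one and 42 changed sign, 18 of these without 1 library. Of 987 values of the other named genes, 818 kept both, 134 lost a call, 25 gained one and 10 changed sign. The cause was not tested. Scaling to library totals moved the median of all genes by 0.38 for salt in SS rats, 0.12 for salt in rats labelled null, 0.26 for genotype on low salt and -0.27 for the interaction. On the recovered whole reads edgeR called 2793 genes for salt in SS rats, 956 genes for salt in rats labelled null, 1441 genes for genotype on high salt, 63 genes for genotype on low salt and 439 genes for the interaction. Scaled to library totals, the counts that passed were of all genes tested 8929 for salt in SS rats, 1031 for salt in rats labelled null, 592 for genotype on high salt, 4059 for genotype on low salt and 1082 for the interaction, and of the 7 members 3 for salt in SS rats, 2 for salt in rats labelled null and 1 for genotype on low salt. The values that changed sign there were Agt 0.045, Ace 0.28, Atp6ap2 0.27 and Agtrap 0.14 for salt in SS rats, Prep 0.11 for salt in rats labelled null, Agtr1a 0.26, Atp6ap2 0.070 and Enpep 0.16 for genotype on low salt, Atp6ap2 -0.14, Enpep -0.015 and Lnpep -0.10 for the interaction. With the compared groups fitted alone, the counts that passed were of all genes tested 1570 for salt in SS rats, 2053 for salt in rats labelled null, 996 for genotype on high salt and 28 for genotype on low salt, and of the 7 members 2 for salt in rats labelled null and 1 for genotype on high salt. With the proximal tubule score as a covariate, the counts that passed were of all genes tested 299 for salt in rats labelled null, 405 for genotype on high salt, 0 for genotype on low salt and 0 for the interaction. The values that changed sign there were Anpep -0.068 for salt in rats labelled null, Agtr1b 0.20 and Enpep -0.011 for genotype on high salt, Agtr1a 0.16, Agtr1b -0.091 and Enpep 0.048 for genotype on low salt, Ace 0.10, Agtr1b 0.29 and Enpep -0.060 for the interaction. With edgeR, the values that changed sign were Agtr1a 0.0072 for genotype on low salt. With DESeq2, the counts that passed were of all genes tested 1656 for salt in rats labelled null, 2030 for genotype on high salt, 555 for genotype on low salt and 835 for the interaction, and of the 7 members 2 for salt in rats labelled null, 1 for genotype on high salt and 1 for the interaction. The values that changed sign there were Agtr1a 0.0030 for genotype on low salt. Scaled to totals without mitochondrial genes, the counts that passed were of all genes tested 368 for genotype on low salt. The values that changed sign there were Agtr1a 0.064 for genotype on low salt. With the mitochondrial share as covariate, the counts that passed were of all genes tested 823 for salt in SS rats, 1319 for salt in rats labelled null, 356 for genotype on low salt and 173 for the interaction, and of the 7 members 0 for salt in SS rats and 1 for salt in rats labelled null. The values that changed sign there were Ace 0.34 for salt in SS rats, Atp6ap2 -0.11 and Prep 0.058 for salt in rats labelled null. With both libraries that stood apart left out, the counts that passed were of all genes tested 1127 for salt in rats labelled null, 851 for genotype on high salt and 237 for the interaction, and of the 7 members 1 for salt in rats labelled null and 1 for genotype on high salt. The values that changed sign there were Mme -0.12 for salt in rats labelled null, Atp6ap2 0.0025 for genotype on high salt, Agtr1a 0.067 for genotype on low salt. Leaving out 1 library at a time, the counts of all genes that passed ran from 419 to 680 for salt in rats labelled null, 612 to 1798 for genotype on high salt, 0 to 397 for genotype on low salt and 221 to 612 for the interaction, and 0 to 1 members passed for salt in rats labelled null, genotype on high salt and the interaction. The values whose sign changed in such a refit ran as follows: Agtr1a -0.0011 to 0.24 for salt in SS rats, Atp6ap2 -0.033 to 0.11 for salt in rats labelled null, Mme -0.12 to 0.23 for salt in rats labelled null, Prep -0.21 to 0.12 for salt in rats labelled null, Ace -0.035 to 0.15 for genotype on high salt, Agtr1b -0.12 to 0.20 for genotype on high salt, Atp6ap2 -0.12 to 0.028 for genotype on high salt, Agtr1a -0.092 to 0.067 for genotype on low salt, Agtr1b -0.26 to 0.066 for the interaction. The lowest counts of all genes came without null high salt rat 5 for salt in rats labelled null, SS high salt rat 1 for genotype on high salt, null low salt rat 5 for genotype on low salt and null low salt rat 5 for the interaction. The deviations of same-numbered rats from their group means had correlations of -0.16 to 0.13. For salt in SS rats 3 of 5 rats correlated best with their own number, and in the other comparisons no rat did. These correlations cannot show whether the numbers pair the samples, and the labels do not say. With the replicate number as a block, 2618 genes passed for salt in SS rats, 814 for salt in rats labelled null, 1276 and 132 for genotype on high and low salt and 275 for the interaction, and of the members again Mme alone, for salt in SS rats. The block moved Cpn1 (adjusted p = 0.0412) for salt in rats labelled null past the threshold, and Mep1a, Mep1b, Arhgef1 and Anpep short of it. The settings that use mitochondrial genes or leave out both libraries were chosen after seeing the data. In SS rats salt and the mitochondrial share cannot be told apart by using that share as a covariate. For Agtr1a and Mme the libraries that decide a call are named beside their values. With 5 rats a group, the intervals of Agt, Ace and Agtr1b leave room for changes that these data cannot show, and Agtr1b rests on few reads.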
